A study of Mus musculus with 8 samples.

Results

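The genes described here are 88 of the 8102 mouse genes that could be named on the array, and they encode the proteins that cut and join messenger RNA and the helicases that unwind it. They were taken by name from the families Hnrnp (17 genes), Srsf (5), Tra2 (2), Sf3 (2), Snrp (10), Prpf (7), Ddx (14), Dhx (5) and Rbm (26), and 3 Y-linked genes were left out. The choice went by gene name and used no expression value, but it was made with earlier results of these data known. Each gene was represented by its brightest probe by mean intensity over all arrays. The probe rows of 3 genes (Ddx27, Ddx56 and Ddx60) could not be tied to 1 row of the intensity table, and 10 more genes (Ddx23, Dhx58, Hnrnpf, Prpf4b, Rbm12b1, Rbm25, Rbm26, Rbm27, Snrpb2 and Tra2a) were detected on too few arrays, which left 75 genes for the test.

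Total RNA came from EGFP-positive cells sorted out of the vertebral column of mouse embryos at E12.5, on a C57BL/6J;129 background, and was hybridised to 8 Illumina WG-6 arrays, 4 per group. In the WT group, EGFP follows an IRES in the 3′ UTR of an intact Sox9 gene, and the design text describes the EGFP-carrying embryos as heterozygous. In the HOMO group, EGFP takes the place of Sox9 on both alleles, and the cells came from chimaeric embryos, because embryos that lack Sox9 throughout do not live to this stage. EGFP was driven by the Sox9 locus in both groups, so each sort gathered cells in which that locus was active, whatever their type. The labels and the methods of the study give different versions of the array, so it is open whether these are the arrays of the study.

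Splicing removes introns through the spliceosome, which is built from small nuclear RNAs and their proteins. Snrp genes encode the proteins of these particles, Sf3 genes the subunits of the complex that holds the branch site, and Prpf genes the factors that assemble the particles and activate them. SR proteins (Srsf genes, with Tra2a and Tra2b as SR-like relatives) bind exons and mostly favour their inclusion, while hnRNP proteins coat the nascent transcript and often act against inclusion. Ddx and Dhx helicases use ATP to remodel RNA and RNA-protein complexes, in splicing and also in ribosome assembly, export and translation. Rbm is a naming class of proteins with an RNA-binding motif rather than 1 family, and holds splicing regulators beside other RNA-binding proteins. Sox9 is the transcription factor that directs cartilage formation.

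The HOMO arrays were much dimmer than the WT arrays, which sets what can be read from them. Mean intensity over all probes was 328.9 ± 33.1 in WT and 7.88 ± 2.43 in HOMO (SD, n = 4 arrays each), a 41.7-fold difference, and 44.8% ± 0.85 of probes were detected in WT against 18.3% ± 2.22 in HOMO. Intensities, single or summed over a list, are therefore given to show the signal on each array and are not a measure of the difference between groups. Differences are given as HOMO minus WT on a log2 scale after quantile normalization, which gives all arrays the same distribution of values. A probe that was detected on no HOMO array has only an upper limit there, and is given as "at least N-fold lower" against the lowest detected level of each HOMO array, which averaged 7.09 on the log2 scale (4.76 on the WT arrays). A p given with such a gene belongs to the fitted difference and does not test the bound. Where the bound did not reach above 1-fold, the gene could be called lower by the fit alone, with no fall measured. Conversely, a gene whose WT level lay below 7.09 and that was detected on all 4 HOMO arrays comes out higher by construction. Sox9 itself has no probe named here, so the genotypes could not be checked on its own transcript. Arrays correlated with each other at 0.978 to 0.995 within WT, 0.880 to 0.944 within HOMO and 0.421 to 0.636 between groups. Genotype, brightness and the origin of HOMO cells from chimaeric embryos go together across all 8 arrays, so their parts in any difference cannot be told apart. In such bulk samples, fewer cells of a type and less RNA per cell cannot be told apart either.

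No protein or probe sequence was analysed here, but the promoters of some of these genes could be read for short matches to the core letters that Sox proteins are known to bind, ACAAAG and ACAATG. In windows from 250 bases before to 50 bases after each RefSeq start (assembly GRCm38.p6, both strands), 16 of the 76 genes with a window held at least 1 match, or 21.1%, against 31.7% of all 27025 genes with a window. The genes below are among those whose array values are given in the next paragraphs. Each line shows 30 bases on the strand of the gene, 5′ to 3′, with the matching letters in capitals; CATTGT is ACAATG on the opposite strand.
Dhx9, chr1:153487848-153487877, 205 and 199 bases before the start: ctagcttgctctACAAAGACAAAGgcaagg
Hnrnpab, chr11:51606988-51607017, 124 bases before the start: tctaaaatgaggACAAAGcccgcccggatc
Hnrnpab, chr11:51606932-51606961, 68 bases before the start: taagatgctaggACAATGgtgagtggcggt
Rbmx, chrX:57393103-57393132, 84 bases before the start: gactagtgaatgACAAAGggaacagccaat
Rbm12, chr2:156112173-156112202, 225 bases before the start: ctgcagtgaaggCATTGTttttctcccttc
Rbm10, chrX:20617303-20617332, 188 bases before the start: ggagacggaaatACAATGtgcgcagctgcg
Snrpg, chr6:86371325-86371354, 203 bases before the start: cttcaattttacACAAAGgaagcttagccg
The distance is that of the first base of each match. The Tra2b window held none of these matches. The CCAAT letters occurred in 59.2% of the members' windows and in 41.1% of all windows, and the TATAAA letters in 17.1% and 15.7%. These matches are a description of the letters only, and the genes that carry a Sox-type match include ones that were lower (Dhx9, Hnrnpab, Rbmx, Rbm12), not called (Snrpg) and higher (Rbm10).

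Of the 75 genes tested, 45 were called lower in HOMO, 11 higher and 19 not called (limma with Benjamini-Hochberg adjustment over 20993 kept probes, adjusted p of at most 0.05, two-sided). The share called lower was 60.0% against 50% (2444) of the 4890 kept named genes, and the share called higher 14.7% against 22.2%. The split depends on the scaling: it was 73 lower and 0 higher with each array centred on its median and 70 lower and 0 higher with scaling by the median absolute deviation, under which the median of all kept probes itself moved to -2.26 and -2.08. Of the 20993 kept probes, 18430 and 18300 were called lower in these scalings. A fall was measured for 32 of the 45 genes (42.7% of the 75, against 28.9% of kept named genes), 21 of them detected on at least 1 HOMO array and 11 with a fold bound. The other 13 were called by the fit with no fall measured. The median difference was -0.99 over the 75 genes and -0.66 over kept named genes. It was -0.25 over the 75 genes when each gene with a fold bound was placed at its bound. In that median, genes with neither a HOMO level nor a fold bound were placed at no difference, and it was not computed for kept named genes.

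These genes were also bright in WT, with a median WT level of 8.58 on the log2 scale against 7.36 for kept named genes, and brighter genes have more room for a measured fall. A second comparison kept genes whose share of the WT signal, carried over to each HOMO array, would exceed the lowest detected intensity there. This left 46 members with a median WT level of 9.96, and 1844 named genes with a median of 9.45. Both sets were chosen on WT intensity, which favours genes that are high in WT, and the members remained the brighter set. The shares that follow are therefore not free of brightness. Among the 46, 29 (63.0%) were called lower against 48.3% of the 1844, and 3 (6.52%) were called higher against 19.8%. Detection on no HOMO array occurred for 9 of the 46 (19.6%, against 13.9%), namely Tra2b, Hnrnpa3, Hnrnpk, Hnrnpll, Hnrnpa0, Snrpa, Rbm4b, Rbm14 and Rbm12, and detection on all 4 HOMO arrays for 22 (47.8%, against 60.0%). No test of these shares was made. The summed intensity of the members took 1.06% to 1.14% of the signal of each WT array and 0.719% to 0.761% of each HOMO array.

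**Figure D1:**
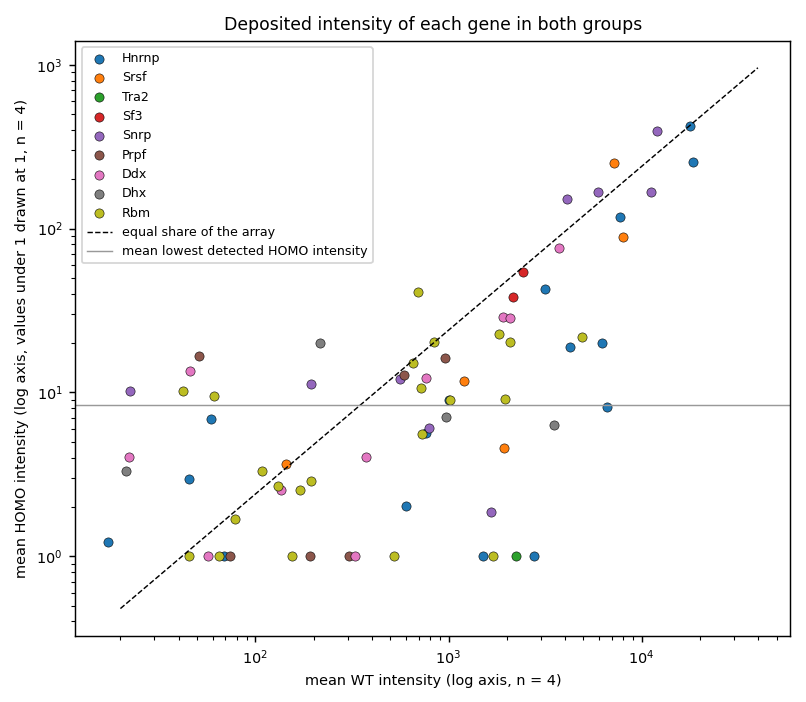
Mean deposited intensity of each of the 75 genes in WT (horizontal, log axis) and HOMO (vertical, log axis, means under 1 drawn at 1), n = 4 arrays each, coloured by family. The dashed line marks an equal share of the array's signal (41.7-fold) and the grey line the mean lowest detected HOMO intensity of 8.35; 55 genes lie below the dashed line and 20 above it, and 14 have a mean HOMO intensity under 1.

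Tra2b, an SR-like protein that binds purine-rich exonic enhancers, had a clear signal on all WT arrays and none in HOMO. Its intensities were 2306.1, 2830.4, 1846.1 and 1939.6 on WT arrays 1 to 4 and 2.0, -0.1, -1.8 and -0.4 on HOMO arrays 1 to 4. All 4 WT arrays detected it and no HOMO array did, the HOMO values scattering around 0 after background subtraction. At an equal share of the signal this gene would have been detectable on every HOMO array. On the normalized scale it was at least 8.37-fold lower in HOMO (fitted difference -5.60 ± 0.13 SE, limma adjusted p = 1.2e-07). Its relative Tra2a was detected on 1 WT array and no HOMO array and was not tested. Tra2b itself was read from 1 probe, and 1 further probe could not be tied to 1 row of the intensity table.

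The hnRNP genes gave 11 lower (68.8%, against 50% of kept named genes), 1 higher (6.25%, against 22.2%) and 4 not called of 16 tested. Of the 11 falls, 10 were measured (62.5% of the 16 genes, against 28.9%). Genes of classical core particle proteins, such as Hnrnpa1 and Hnrnpa2b1, were among them, while Hnrnpc was not called. Hnrnpa2b1, which binds the nascent transcript and also guides RNA localisation, had intensities of 6867.5, 6722.7, 6191.8 and 6809.8 in WT and of 9.3, 5.7, 9.1 and 8.7 in HOMO. It was detected on 3 of 4 HOMO arrays, close to their detection limit, so that a gene in the range of 6192 to 6868 in WT was barely visible in HOMO. Its difference was -4.73 ± 0.27 (limma adjusted p = 1.3e-06). A second, dimmer Hnrnpa2b1 probe, at 70.5 to 196.9 in WT and detected on no HOMO array, was not called (-1.19, limma adjusted p = 0.10).

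Hnrnpa3 had WT intensities of 2867.4, 3630.8, 1956.1 and 2687.6 and HOMO intensities of 0.2, -5.9, 5.0 and -2.4. No HOMO array detected it, and it was at least 10.4-fold lower (fitted difference -5.57, limma adjusted p = 6.4e-06). This rests on 1 probe, and 1 further Hnrnpa3 probe could not be tied to 1 row of the intensity table. Hnrnpk, a poly(C)-binding protein with roles from chromatin to translation, had WT intensities of 1799.0, 1638.6, 1230.0 and 1380.9 and HOMO intensities of -11.9, -4.9, -5.9 and -4.0. It too was detected on every WT array and no HOMO array, and was at least 5.74-fold lower (fitted difference -5.30, limma adjusted p = 1.2e-07). Hnrnpll and Hnrnpa0 had smaller bounds, of 2.28-fold and 2.87-fold.

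Other hnRNP genes moved less. Hnrnpa1, the prototype splicing repressor of the family, differed by -2.58 ± 0.58, and Hnrnpu, a scaffold-attachment protein, by -1.64 ± 0.39. In both, the WT arrays themselves were uneven, with Hnrnpa1 intensities of 5146.3, 6544.5, 2072.2 and 3308.1 and Hnrnpu intensities of 1053.1, 1822.9, 464.5 and 666.8 on WT arrays 1 to 4. Neither was called any more when WT arrays 1 and 2 were left out. A second, dimmer Hnrnpa1 probe, at 33.8 to 87.6 in WT and detected on no HOMO array, was not called (-0.44, limma adjusted p = 0.27).

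The brightest hnRNP gene was Hnrnpab, a CArG-box and RNA-binding protein, with intensities of 19448.5, 24358.5, 14287.2 and 15278.3 in WT and 361.3, 200.2, 152.0 and 304.0 in HOMO. It was detected on all 8 arrays and fell by 0.80 ± 0.15 on the log2 scale (limma adjusted p = 0.0015), with no overlap of normalized levels between groups. Hnrnpm differed by -0.47 and was called, while Hnrnpdl (-0.39) and Hnrnpc (-0.25 ± 0.12, adjusted p = 0.089) were not called. Scaled so that each array sums to 1000000 (ppm of the signal), Hnrnpc took 975 to 1208 ppm on the HOMO arrays and 1084 to 1308 ppm on the WT arrays, ranges that overlap.

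Hnrnpul1 was the hnRNP gene called higher (1.01 ± 0.38, limma adjusted p = 0.038), and its direction turned under median centring and scaling by the median absolute deviation. Its intensities were 58.5, 58.1, 53.9 and 65.9 in WT and 9.0, 5.6, 8.7 and 4.4 in HOMO, where it was detected on 2 arrays. Its WT level of 5.58 lay below the lowest detected HOMO level.

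Hnrnph1, which binds G-rich elements, showed how much a value can depend on the probe. The probe used here had intensities of 6036.1, 7641.1, 5320.7 and 5861.7 in WT and 20.3, 13.3, 16.2 and 30.4 in HOMO, and was detected on all 8 arrays, with a difference of -2.71 ± 0.26 (limma adjusted p = 2.3e-05). A second probe of the gene was nearly as bright in WT, at 5668.5, 8983, 4529.3 and 5168.8, but had -6, -9.5, -3.4 and -2.4 in HOMO and was detected on none of those arrays, with a fitted difference of -7.23. Both probes were lower, but 1 showed a remaining signal in every HOMO sample and the other none. Where on the transcript each probe lies was not analysed here.

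All 5 SR protein genes were called, 4 lower and 1 higher, where 72.2% of kept named genes were called in either direction. Srsf1, the prototype SR protein, had intensities of 7787.9, 9849.7, 6819.9 and 7506.5 in WT and 127.9, 73.9, 54.2 and 98.7 in HOMO. It fell by 0.88 ± 0.12 (limma adjusted p = 0.00017) with the groups fully apart. Srsf3, the smallest SR protein, had 1181.8, 1313.6, 1076.4 and 1247.0 in WT and 20.4, 9.2, 8.4 and 9.2 in HOMO, and fell by 1.57 ± 0.32 (limma adjusted p = 0.0024). HOMO array 1 stood above the other HOMO arrays for this gene.

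Srsf5 had the most negative difference of the family, with intensities of 2185.3, 2358.6, 1416.6 and 1812.4 in WT and 10.4, 0.9, -1.9 and 8.8 in HOMO. It was detected on 2 HOMO arrays and lay at background on the other two, and differed by -4.12 ± 0.65 (limma adjusted p = 0.00052). Srsf10, a regulator that is dephosphorylated on heat shock, had 122.1 to 171.2 in WT and 0.8 to 5.0 in HOMO, and was called by the fit (-1.01) with no fall measured.

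Srsf2, an SR protein that stays in the nucleus, was higher in HOMO in this scaling. Its intensities were 7505.8, 7871.7, 6146.0 and 7230.3 in WT and 298.2, 245.0, 183.5 and 280.8 in HOMO. It took 462 to 475 ppm of the signal on the WT arrays and 608 to 801 ppm on the HOMO arrays, without overlap. The normalized difference was 0.60 ± 0.12 (limma adjusted p = 0.0017). Its direction turned to lower under median centring (-4.12, where all kept probes had a median of -2.26), scaling by the median absolute deviation (-3.30, against -2.08) and in the authors' normalized values (-1.34, against -1.83). Set against these medians it lay lower in the first scalings (-1.86 and -1.22) and higher in the authors' values (0.50).

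**Figure D2:**
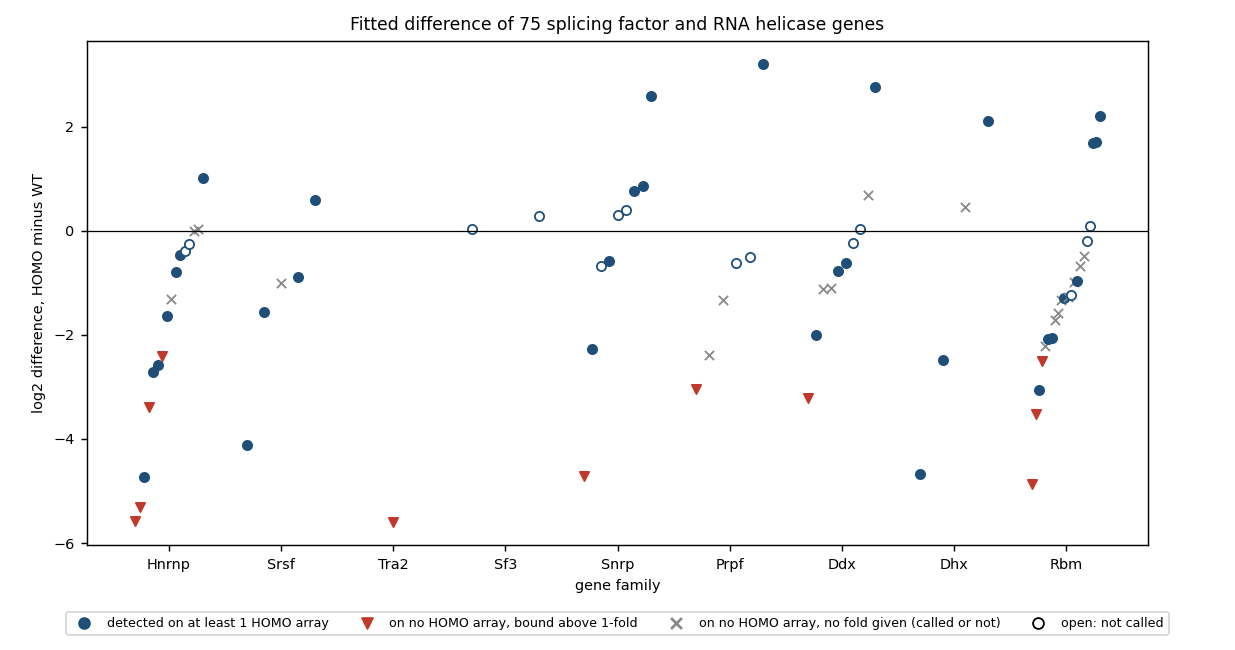
Fitted log2 difference, HOMO minus WT, of each of the 75 tested genes (vertical axis) by family (horizontal axis, genes within a family ordered by difference). Filled circles are called genes detected on at least 1 HOMO array, open circles genes not called, red triangles genes on no HOMO array with a fold bound and grey crosses genes on no HOMO array without one; the Hnrnp and Rbm families spread from below -4 to above 1, and the 2 Sf3 genes sit near 0.

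Of 9 Snrp genes tested, 3 were lower (33.3%, against 50% of kept named genes), 3 higher (33.3%, against 22.2%) and 3 not called. The Sm proteins form the ring that all spliceosomal snRNPs except U6 share, and 4 of their genes were detected on all 8 arrays. Snrpg had intensities of 11263.1, 11395.3, 11613.7 and 13641.7 in WT and 512.6, 349.8, 270 and 438.7 in HOMO, and was not called (0.30 ± 0.14, limma adjusted p = 0.082). Snrpd3 had 11274.1, 12176.5, 9134.7 and 12010.9 in WT and 213.0, 128.4, 133.7 and 193.7 in HOMO, and fell by 0.57 ± 0.14 (limma adjusted p = 0.0053).

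Snrpd2 (0.40) and Snrpb (-0.67) were not called. A second Snrpb probe, detected on 2 HOMO arrays, was called lower (-1.64, limma adjusted p = 0.027). Snrpf had 4882.4, 4108.8, 3613.5 and 3920.7 in WT and 161.6, 159.4, 134.5 and 147.5 in HOMO, and was higher by 0.77 ± 0.21 (limma adjusted p = 0.0093), a call that was lost when WT arrays 1 and 2, or 3 and 4, were left out and a direction that turned under median centring, scaling by the median absolute deviation and in the authors' values. Snrpe was called higher (2.60) from intensities of 28, 29.1, 16.6 and 16.4 in WT and 10.3, 6.5, 11.7 and 12.2 in HOMO. These are dim on every array, and its WT level of 4.86 lay below the lowest detected HOMO level.

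The U1 protein gene Snrpa (U1-A) was among the genes lost from view. Its intensities were 1847.9, 1628.2, 1413.7 and 1718.9 in WT and 1.3, -0.4, 0.6 and 6.0 in HOMO, with no HOMO array detected. It was at least 6.29-fold lower (fitted difference -4.72, limma adjusted p = 7.8e-06). A second probe of the gene gave 1679, 1663.4, 1324.7 and 1544.1 in WT and 6.3, -0.2, 1.2 and 4.7 in HOMO, again undetected there. The third probe kept a signal, at 1241.6, 1427.8, 946.9 and 1117.7 in WT and 24.4, 7.7, 11.6 and 16.2 in HOMO, and differed by -1.08 (limma adjusted p = 0.034). All 3 probes were called lower, and a HOMO level was measured for 1 of them.

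The other U1 protein gene, Snrpc (U1-C), was called higher (0.86 ± 0.27, limma adjusted p = 0.019) from intensities of 160.8 to 244.2 in WT and 7.5 to 14.2 in HOMO. Its groups overlapped, its WT level of 6.84 lay below the lowest detected HOMO level, and its direction turned under median centring, scaling by the median absolute deviation and in the authors' values.

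Snrpn is an imprinted gene that encodes a neuronal relative of the SmB protein. It had intensities of 927.5, 1288.3, 467.9 and 473.0 in WT and 6.1, 2.5, 9.0 and 6.7 in HOMO, with 1 HOMO array detected, and differed by -2.28 ± 0.54 (limma adjusted p = 0.0051). Its values on WT arrays 1 and 2 were above those on WT arrays 3 and 4. The neuron markers split the same way: the 12 kept neuron markers, of 17 listed, summed to 10701 and 15477 on WT arrays 1 and 2, to 4882 and 5539 on WT arrays 3 and 4, and to 47.8 to 68.3 on the HOMO arrays. Of the 12, 10 were called lower, against 50% of kept named genes. Snap25 was called higher, by 4.05 from at most 25.4 in WT. Without WT arrays 1 and 2 the Snrpn difference was -1.81 and was not called (limma adjusted p = 0.077). The part of neuronal cells in this result was not tested.

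Neither of the Sf3 genes was called. Sf3b5, a small subunit of the SF3B complex, had intensities of 2914.7, 2392.7, 2128.6 and 2299.9 in WT and 75.1, 46.5, 35.9 and 61.1 in HOMO, with a difference of 0.28 ± 0.13 (limma adjusted p = 0.084). Sf3a1, a subunit of the SF3A complex, differed by 0.04 ± 0.13. Both were detected on all 8 arrays, so they were measured, and a p that misses the threshold does not show that they were equal.

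Of 6 Prpf genes tested, 3 were called lower, 1 higher and 2 not called, but few of these calls rested on a measured level. Among kept named genes, 50% were called lower and 22.2% higher. Prpf38a had 159.2 to 243.7 in WT and -5.5 to 0.4 in HOMO, and was called by the fit (-2.39) with no fall measured, as was Prpf40b.

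Prpf3, a U4/U6 protein and the brightest of the family, had intensities of 1190.6, 929.5, 784.7 and 918.7 in WT and 14.4, 9.6, 16.2 and 25.0 in HOMO. It was not called (-0.50 ± 0.39, limma adjusted p = 0.27). Prpf31, which joins U4/U6 to U5, was called higher (3.21 ± 0.32, limma adjusted p = 3e-05) from intensities of 61.2, 71.6, 31.4 and 40.9 in WT and 13.2, 15.2, 18.2 and 19.8 in HOMO. It was detected on all 8 arrays, but its WT level of 5.42 lay below the lowest detected HOMO level, and its direction turned under median centring (-0.44) and scaling by the median absolute deviation (-0.31).

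**Figure D3:**
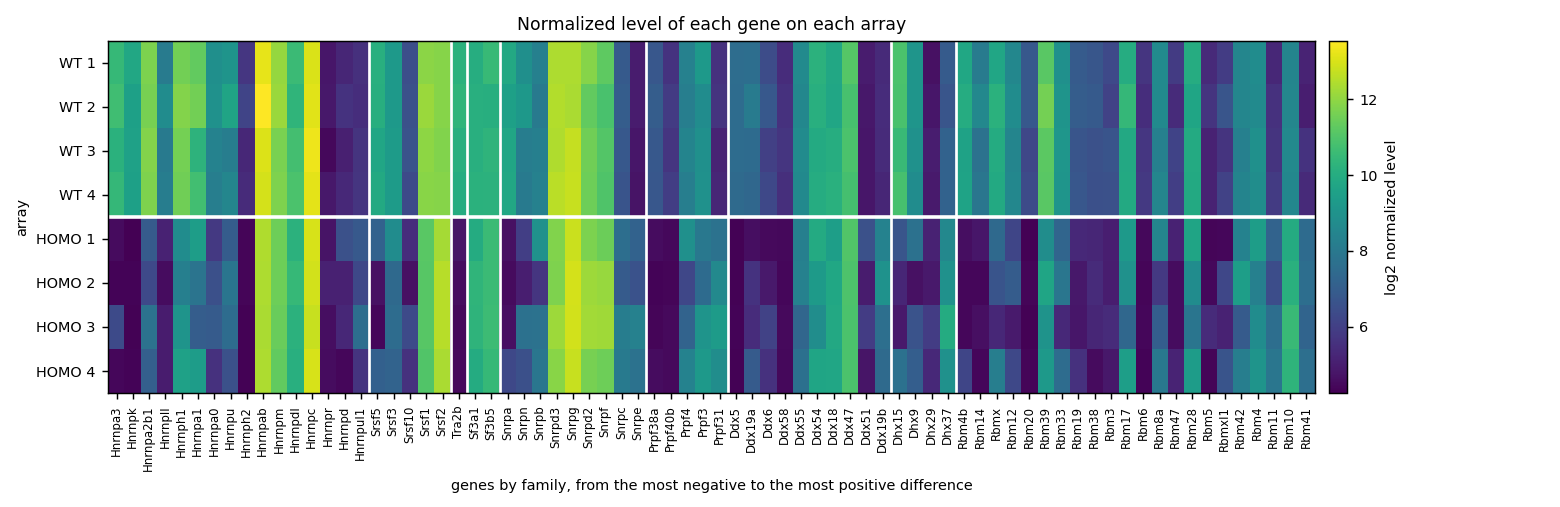
Normalized log2 level (colour) of the tested genes, 1 of which is not shown (columns, by family and then by difference) on each of the 8 arrays (rows). Within families the HOMO rows turn dark for the genes at the left, such as Hnrnpa3, Hnrnpk, Tra2b and Ddx5, and stay bright for Hnrnpab, Hnrnpc, Snrpg and Ddx47.

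The DEAD-box genes gave 6 lower, 1 higher and 3 not called of 10 tested, and 4 of the 6 falls were measured. These counts stand against 50% lower, 22.2% higher and 28.9% with a measured fall among kept named genes. Ddx19a, a helicase of mRNA export, had intensities of 355.2, 580.2, 271.2 and 282.7 in WT and 0.8, 4.1, 3.2 and 8.1 in HOMO, with 1 HOMO array detected, and differed by -1.99 ± 0.45 (limma adjusted p = 0.0036). The call was lost without WT arrays 1 and 2 (limma adjusted p = 0.053), with intensities raised to at least 1 (0.052) and with division by the array mean (0.083). Its close paralogue and chromosomal neighbour Ddx19b was called in the opposite direction (2.77 ± 0.32, limma adjusted p = 7e-05), from dimmer signals of 47.6, 55.6, 40.6 and 40.1 in WT and 16.9, 17.9, 8.8 and 10.6 in HOMO. Its WT level of 5.35 lay below the lowest detected HOMO level and its direction turned under median centring (-0.51) and scaling by the median absolute deviation (-0.40). The sequences of these paralogues are alike, and how far each probe tells them apart was not tested.

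Ddx5 (p68), a co-factor of splicing and transcription, had 349.5, 379.3, 278.9 and 303.8 in WT and -8.4, -7.1, -4.4 and -6.0 in HOMO. It was at least 1.35-fold lower, a bound for a gene whose WT share of the signal would have been detectable on only 2 of the 4 HOMO arrays. The fitted difference was -3.22 (limma adjusted p = 1.7e-07). Ddx55 had 804.4, 796.9, 689.0 and 752.1 in WT and 16.3, 13.6, 7.6 and 11.7 in HOMO, and fell by 0.77 ± 0.24 (limma adjusted p = 0.017), a call that was lost without WT arrays 1 and 2 and without WT arrays 3 and 4. Ddx54, a nucleolar helicase, was called at the edge of the threshold (-0.62, limma adjusted p = 0.047).

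Ddx6, a helicase of P-bodies, was called by the fit (-1.12) without a measured fall, from 79.2 to 210.2 in WT and -0.6 to 4.5 in HOMO. The same held for Ddx58 (RIG-I), a sensor of viral RNA. The brightest gene of the family, Ddx47, which acts in ribosome assembly, had intensities of 4280.4, 3933.7, 3288.5 and 3441.6 in WT and 110.6, 63.1, 44.6 and 86.5 in HOMO. It was not called (0.04 ± 0.12, limma adjusted p = 0.78). Ddx18, also a ribosome assembly factor, was not called either (-0.23 ± 0.15).

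The DEAH-box helicases Dhx15 and Dhx9 were lower. Dhx15, which takes the spent spliceosome apart, had intensities of 3900.2, 4079.3, 2594.5 and 3521.4 in WT and 8.5, 3.1, 1.7 and 12 in HOMO, with 1 HOMO array detected. Its share of the signal was 195 to 246 ppm in WT and 6.99 to 27.8 in HOMO, and it differed by -4.67 ± 0.58 (limma adjusted p = 0.00011). Dhx9 (RNA helicase A) had 1078.3, 1198.9, 807.6 and 815.3 in WT and 13.1, 0.8, 5.7 and 8.6 in HOMO, with 2 HOMO arrays detected, and differed by -2.47 ± 0.58 (limma adjusted p = 0.0046). Without WT arrays 1 and 2 its difference was -2.35 and was not called (limma adjusted p = 0.058).

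Dhx37, a ribosome assembly helicase, was called higher (2.12 ± 0.30, limma adjusted p = 0.00024). It had 207.7, 191.9, 217.1 and 242.3 in WT and 18.4, 17.5, 23.5 and 21.0 in HOMO, and was detected on all 8 arrays. Its WT level of 6.99 lay just under the lowest detected HOMO level, and its direction turned under median centring (-2.10) and scaling by the median absolute deviation (-1.84). Dhx29 was detected on no HOMO array and was not called.

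Of 22 Rbm genes tested, 15 were called lower (68.2%, against 50% of kept named genes), 3 higher (13.6%, against 22.2%) and 4 not called. Of the 15 falls, 8 were measured (36.4% of the 22 genes, against 28.9%). Rbm4b had intensities of 1773.8, 2293.8, 1268.3 and 1483.1 in WT and 0.8, -2.4, -2.7 and 5.8 in HOMO. It was detected on no HOMO array and was at least 6.39-fold lower (fitted difference -4.87, limma adjusted p = 8.2e-06). Its paralogue Rbm4, a splicing regulator, was detected on all 8 arrays and differed by 0.09 ± 0.23 (limma adjusted p = 0.73). The probes of these 2 paralogues, 1 for each gene, thus differed in whether any signal was left in HOMO. How far each probe tells the paralogues apart was not tested.

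Rbmx, the X-linked hnRNP G, had 1732.0, 2600.3, 1693.6 and 1819.2 in WT and 11.6, 6.7, 2.8 and 15.3 in HOMO. With 2 HOMO arrays detected, it differed by -3.06 ± 0.56 (limma adjusted p = 0.0011). Rbm39, which couples transcription factors to U2AF-like splicing, had 4535.2, 6629.8, 4042.0 and 4449.6 in WT and 20.6, 25.3, 15.8 and 25.4 in HOMO. All 8 arrays detected it, and it fell by 2.08 ± 0.22 (limma adjusted p = 4.1e-05), while its second probe differed by -0.58 and was not called (limma adjusted p = 0.24).

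Rbm12 had intensities of 718.7, 930.9, 570.5 and 686.7 in WT and 6.8, 7.6, 1.8 and 6.0 in HOMO. It was at least 2.81-fold lower (fitted difference -2.50, limma adjusted p = 0.00042). Its second probe gave a like picture, with 571.3 to 854.1 in WT, -0.2 to 7.1 in HOMO, no HOMO array detected and a fitted difference of -2.84. Rbm14, a paraspeckle protein, was at least 1.99-fold lower. Rbm33 (-2.06), Rbm17 (-1.28), a component of the early spliceosome, and Rbm28 (-0.96) were lower with a HOMO signal on 3, 3 and 4 arrays.

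Rbm20, Rbm19, Rbm38, Rbm3, Rbm6, Rbm47 and Rbm5 were called by the fit with no fall measured, at WT levels of 5.31 to 6.84. The exon junction complex gene Rbm8a was not called (-1.23 ± 0.52, limma adjusted p = 0.062), although its mean was well below WT. A second, dimmer Rbm8a probe was called lower (-0.54, limma adjusted p = 0.019) without being detected on any HOMO array.

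Of the 11 genes called higher, 3 had a WT level above the lowest detected HOMO level, namely Srsf2, Snrpf and Rbm10 (3 of the 75 genes, against 9.53% of kept named genes). Rbm10, an X-linked regulator that promotes exon skipping, had the most positive difference among them. Its intensities were 682.9, 785.6, 632.0 and 694.4 in WT and 46.4, 32.7, 33.8 and 51.8 in HOMO. Its share of the signal was 43.0 to 47.5 ppm in WT and 94.6 to 139 in HOMO, and the difference was 1.71 ± 0.15 (limma adjusted p = 1.2e-05). The direction turned under median centring (-3.05), scaling by the median absolute deviation (-2.63) and in the authors' values (-0.59). Set against the median of all kept probes in the same scaling, Rbm10 was at -0.79 under median centring, at -0.55 under scaling by the median absolute deviation and at 1.24 in the authors' values.

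Rbm41, on the X chromosome, was called higher (2.21 ± 0.17, limma adjusted p = 5.7e-06) from 32.0 to 53.1 in WT and 7.4 to 11.9 in HOMO. Rbm11, a regulator known from brain and testis, was called higher as well (1.69). Both had WT levels below the lowest detected HOMO level, and both turned, under median centring (Rbm41 -0.56, Rbm11 -0.99) and under scaling by the median absolute deviation (Rbm41 -0.48, Rbm11 -0.88).

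**Figure D4:**
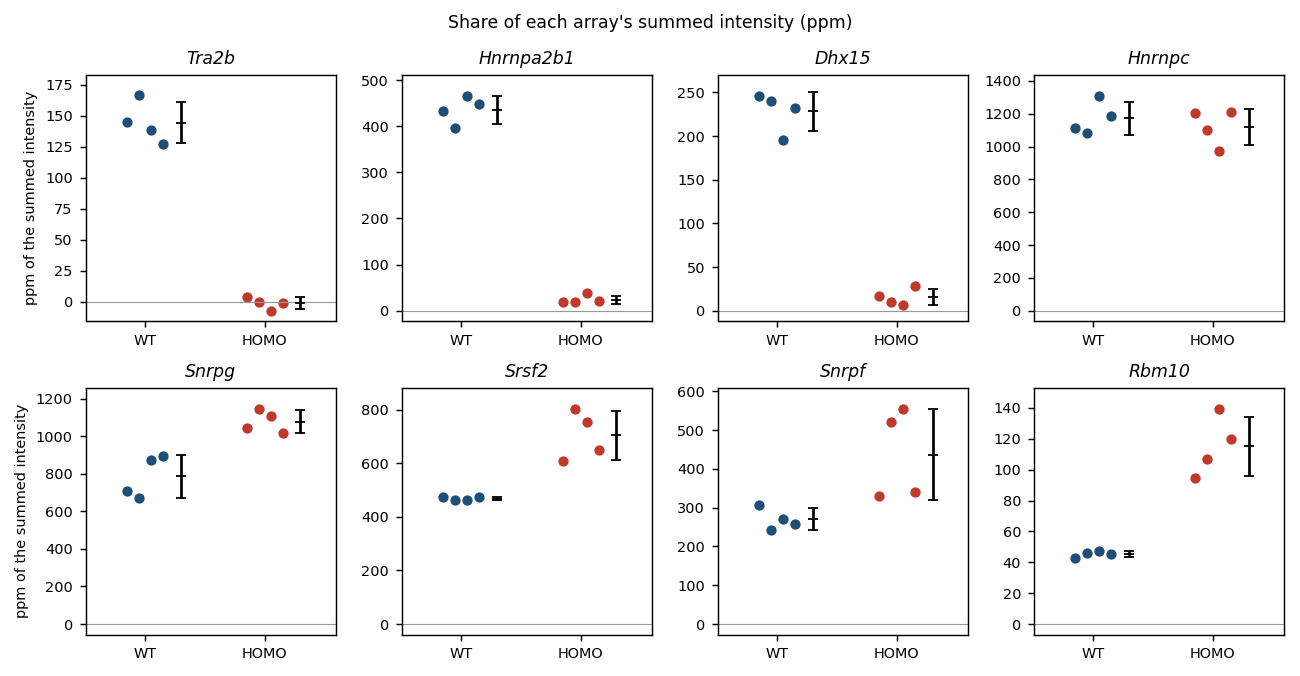
Intensity of 8 genes as ppm of the summed intensity of the array (vertical axes, each on its own linear scale), by group. Points are single arrays and bars the mean with SD (n = 4): Tra2b, Hnrnpa2b1 and Dhx15 lie near 0 in HOMO, Hnrnpc overlaps between groups, and Snrpg, Srsf2, Snrpf and Rbm10 lie above all WT arrays.

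More than 1 kept probe was available for 17 of the 75 genes. Of their 21 other probes, 12 had the same call as the probe used, and 0 were called the opposite way. The rest differed in whether they were called, as for Prpf3, whose 2 other probes were called lower without being detected on any HOMO array.

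Non-overlapping levels were found for 53 of the 75 genes (70.7%, against 69.2% of kept named genes). Detection on no HOMO array applied to 29 genes (38.7%, against 43.4%), and detection on all 4 HOMO arrays to 25 (33.3%, against 31.4%). These shares lie close to the background, so the members were not set apart by them.

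Other genes of the splicing machinery were taken from lists that hold none of the 88 genes, and their counts stand against 50% lower and 22.2% higher among kept named genes. Of 21 further spliceosome and snRNP genes tested, 10 were called lower, 4 higher and 7 not called, with a median difference of -0.31. The pre-mRNA factor Bcas2, of the Prp19 complex, was at least 4.74-fold lower, while U2af1, which recognises the 3′ splice site, was higher by 1.23. Of 21 exon junction and SR-related genes, 11 were lower, 3 higher and 7 not called (median -0.37), among them the SR protein kinase gene Clk1, at least 2.24-fold lower. Of 26 other splicing regulators, 17 were lower, 3 higher and 6 not called (median -0.88). Celf2, at least 4.63-fold lower, and Nono, at least 3.05-fold lower, stood among those without a HOMO signal. Of 4 other RNA helicase genes, 2 were lower, 1 higher and 1, Upf1, which the exon junction list also holds, not called. Elavl3 and Elavl4 stand both among the regulators and among the neuron markers.

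Genes that mark the cells themselves give the setting of these values. Their counts also stand against 50% lower and 22.2% higher among kept named genes. Of 6 kept cartilage matrix genes, of 15 listed, 5 were called lower, with Col2a1 at -3.85. Of 3 kept chondrogenic and sclerotome transcription factor genes, 2 were called lower (Sox5 at -1.06, and Sox6 by the fit with no fall measured) and 1 higher (Pax1, by 1.81). The cartilage genes summed to 19521 to 28385 on the WT arrays and 33.5 to 111 on the HOMO arrays. Of 5 kept neural progenitor genes, 4 were called lower and 1, Nkx6-2, higher by 3.70 from at most 45.1 in WT. The 5 genes had sums of 1085 to 3284 in WT and 11.3 to 31.3 in HOMO. Of 4 kept erythroid genes, 2 were called higher and 0 lower, with sums of 2582 to 7074 in WT and of 776, 297, 36.5 and 662 on HOMO arrays 1 to 4, HOMO array 3 standing apart. Of 3 kept endothelial genes 2 were called higher, the 2 kept macrophage genes were at most 41.6 in WT, and none of the 10 skeletal muscle genes listed was kept. The endothelial genes Eng and Pecam1 and the erythroid gene Hbb-b1, all called higher, were dim in WT, at most 105.8, 114.5 and 184.7. An equal share needs a WT intensity of at least about 281 to be detected in HOMO. Their calls carry the same limit as those of the dim splicing genes. The part that a different make-up of cell types has in the values of the splicing genes was not tested.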

How the data were processed

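The authors deposited a table of background-subtracted probe intensity values from GenomeStudio (version not given in the sources used here), which can be negative, and beside each a detection p-value column that was read as 1 minus p, since it runs from dim to bright. A second table deposited by the authors holds normalized log2 values with the probe names. Its 46624 names were joined to intensity rows by equal rows of 8 values, and 38432 matched 1 row. Zero-padded numbers in the names were read as NCBI gene identifiers (RefSeq annotation of GRCm38.p6).

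In R 4.3.3, limma 3.58.1 was used for background correction (normexp with parameters from the detection values, then an added offset of 16), quantile normalization and log2 transformation. Probes with a detection value above 0.95 on at least 3 of 8 arrays were kept, and 12 control probes were left out. HOMO was compared with WT by lmFit and eBayes of limma (two-sided), with Benjamini-Hochberg adjustment over the kept probes. The procedure was tested on simulated data. Figures used Python 3.11.15, numpy 2.4.6, pandas 2.3.3 and matplotlib 3.10.9. Each of the 4 arrays per group came from its own sorted population per the study's methods, and this number of arrays limits the precision.

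Members and lists were chosen with earlier results of these data known. Array values, singly or as a range for each group, are given for Tra2b and for genes picked by a rule in each family. The rule took up to 2 called genes with the largest difference each way among genes detected in both groups. It also took up to 2 called lower genes on no HOMO array with the highest WT level, and the brightest gene. Snrpf, Hnrnpa1, Hnrnpu and the other probes were added after their values were seen. Alternatives changed the scaling, background correction, offset, filter, test, probe and samples. Division by the array mean and quantile normalization of log2 values were chosen after seeing the data. Replicate numbers did not pair the arrays. The values of 1 tested gene are not reported here on their own.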

Additional observations from a re-analysis of the deposited data

Results flagged for a closer look

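In 3 of 53 groups of 4 arrays examined, 1 array stood apart from the other three by more than Dixon's 95% critical value for 4 samples, where chance flags about 1 in 20 groups. Hnrnpk had a level of 9.82 on WT array 1 and of 9.52 to 9.55 on the other WT arrays. Prpf38a had a level of 6.99 on WT array 2 and of 6.78 to 6.80 on the others, and Rbm39 a level of 11.60 on WT array 2 and of 11.16 to 11.22 on the others. By normalized level, WT array 2 was the highest of the 4 WT arrays for 33 of the 75 genes, against 17, 14 and 11 for WT arrays 1, 3 and 4.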

How the results depend on the processing

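Against 45 genes called lower and 11 higher of 75, median centring gave 73 and 0, scaling by the median absolute deviation 70 and 0, and the authors' normalized values 63 and 6. For these the median of all kept probes was -2.26, -2.08 and -1.83. Over all 20993 kept probes, the main test called 10179 lower and 5209 higher. Median centring called 18430 and 817 of them, scaling by the median absolute deviation 18300 and 1011, and the authors' values 14813 and 3281. Probes detected on all 8 arrays gave 9 lower and 6 higher of 25 genes tested; over all such probes, 786 were lower and 2893 higher of 5096, a filter that removes every gene lost from view in HOMO. Division by the array mean gave 38 and 15, where 6431 of all 20993 kept probes were lower and 7193 higher. Leaving out 1 array gave 40 to 45 lower and 9 to 12 higher (9429 to 10393 and 4856 to 5403 over all kept probes). Leaving out WT arrays 1 and 2 together gave 32 and 8 (8389 and 4339 over all kept probes). No called gene changed sign when arrays were left out. Without WT arrays 1 and 2, 17 calls were lost (Ddx19a, Ddx54, Ddx55, Ddx6, Dhx9, Hnrnpa1, Hnrnpm, Hnrnpu, Hnrnpul1, Rbm17, Rbm28, Rbm33, Rbm5, Snrpc, Snrpf, Snrpn and Srsf10), and without WT arrays 3 and 4, 12 (Ddx54, Ddx55, Ddx6, Hnrnpul1, Rbm17, Rbm28, Rbm33, Rbm47, Rbm5, Snrpc, Snrpf and Srsf10). With single arrays left out, Ddx54, Rbm5, Rbm28 and Hnrnpul1 were the calls most often lost.

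Of the 20 genes with a positive difference, 19 turned under median centring and 19 under scaling by the median absolute deviation (10 of the 11 called higher in each), 11 in the authors' values and 4 under division by the array mean. Of 55 negative ones, 1 turned in the authors' values and 4 under division by the array mean, of which Rbm5 and Rbm47 had been called. Among genes named by the rule, median centring gave Hnrnpul1 -1.10, Srsf2 -4.12, Sf3b5 -4.53, Snrpc -2.36, Snrpg -4.26, Prpf31 -0.44, Ddx19b -0.51, Ddx47 -4.77, Dhx37 -2.10, Rbm41 -0.56 and Rbm10 -3.05. Scaling by the median absolute deviation gave Hnrnpul1 -0.99, Srsf2 -3.30, Sf3b5 -3.96, Snrpc -2.14, Snrpg -3.35, Prpf31 -0.31, Ddx19b -0.40, Ddx47 -4.14, Dhx37 -1.84, Rbm41 -0.48 and Rbm10 -2.63. In the authors' values, of the same genes, Srsf2 (-1.34), Sf3b5 (-2.01), Snrpc (-0.60), Snrpg (-1.45), Ddx47 (-2.17) and Rbm10 (-0.59) turned. Division by the array mean turned, of these, Sf3b5 (-0.091) and Ddx47 (-0.26), and leaving out WT arrays 3 and 4 turned Ddx47 (-0.0085); neither gene was called in the main test. The cause was not tested.

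With the replicate number as a block, 44 genes were lower and 11 higher (9768 and 5031 over all kept probes), and Rbm5 was the call lost. Deviations of same-numbered arrays correlated at -0.033 to 0.028, so the arrays share only a number. The dim HOMO arrays set the depth: a gene needed a WT intensity of about 281 to 518 for an equal share to be detected there.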
